A study of Mus musculus with 6 samples.

Results

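Mesothelial marker and keratin genes are given by name, the rule using no measured value, and comprise Msln, Wt1, Upk3b, Upk1b, Lrrn4, Muc16, Krt8, Krt18 and Krt19. Of these 9 genes, 8 were found among the 24063 gene symbols of the count files, and Muc16 was not analysed here. RNA was sequenced from lung endothelial cells (ECs) of C57BL6 male mice, isolated with anti-CD31 beads, in 6 libraries. In 3 of them the mice had undergone sham surgery, and in the other 3 a unilateral pneumonectomy (PNX) 7 days earlier. Sham surgery was a thoracotomy without removal of a lung, and PNX removed the left lung. Each library was a pool of 2 mice, labelled as 8 weeks old, although the methods give an older age at surgery. The labels give no mutant allele, transgene or drug for these mice. The preparations are bulk RNA of bead-selected cells, so a lower number of cells of a type and less RNA per cell cannot be told apart.

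The mesothelium is the sheet of flat epithelial-like cells that covers the lung surface as visceral pleura and lines the chest wall. It is neither endothelial nor part of the airway or alveolar epithelium, yet it builds the same simple keratin filaments as those epithelia. Msln encodes mesothelin, a surface glycoprotein of mesothelial cells and a binding partner of the mucin encoded by Muc16. Wt1 encodes a zinc finger transcription factor of developing and adult mesothelium. Upk3b and Upk1b encode uroplakins, membrane proteins first known from urothelium, and Lrrn4 encodes a leucine-rich repeat membrane protein. Krt8 is a type II keratin that pairs with the type I keratins Krt18 and Krt19, and these are shared by simple epithelia and mesothelium, so they do not mark mesothelium alone.

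The 5 mesothelial markers were all higher after PNX in both deposits of libraries, by 5.52 to 6.31 times for Wt1, 3.19 to 3.85 times for Msln, and 1.55 to 2.21 times for Upk3b, Lrrn4 and Upk1b. The 3 simple keratins were at nearly the same level in both groups, with fitted log2 differences from −0.08 to 0.27. Replicates 1 and 2 of each group carry the mark re-used in the labels and are named the earlier deposit here, and replicate 3 of each group, without that mark, the later deposit. The markers were also higher in the later deposit than in the earlier one, within sham and within PNX. In the blocked fit it was about as large as the difference between PNX and sham for Msln, and larger for Upk3b and Lrrn4. For these genes the call in edgeR depended on the replicate block, the term that takes out the deposit.

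The genes lie apart in the genome (GRCm38, GENCODE annotation), with the exception of 2 keratins. Msln is on the minus strand of chromosome 17 from 25748613 to 25754378, and Wt1 on chromosome 2, plus strand, between 105126529 and 105173616. Upk3b is on chromosome 5 from 136038496 to 136046487, Upk1b on chromosome 16 from 38773184 to 38800328, Lrrn4 on chromosome 2 from 132868305 to 132880891 and Krt19 on chromosome 11 from 100140810 to 100148665. Krt8 (chromosome 15, 101996698 to 102004482, minus strand) and Krt18 (102028180 to 102032027, plus strand) stand head to head, 23.7 kb apart with 0 annotated genes lying wholly between them. Each of the 8 genes was counted on a single RefSeq transcript, so that no read of theirs could be counted on several transcripts of the gene. Krt8 overlaps Gm36026, a noncoding RNA gene on the opposite strand, and as no source here says that strand was used in counting, its count could include reads of that gene. Wt1os, the antisense gene beside Wt1, ends before Wt1 starts in this annotation and held 1.25 to 5.51% of the Wt1 count of a library.

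Upk3b and Lrrn4 kept a similar count ratio to each other in sham and PNX, and the sequences before their starts are shown as the genomic context of that pattern. They are the 250 bases upstream of the start of transcription in RefSeq (GRCm38.p6), read on the strand of the gene, and for Lrrn4 the last bases fall within the first exon of GENCODE. Capitals mark GGAATG on either strand, core letters bound by TEAD factors, a motif that was added after the sequences had been read.
Upk3b (chr5:136038246-136038495, plus strand): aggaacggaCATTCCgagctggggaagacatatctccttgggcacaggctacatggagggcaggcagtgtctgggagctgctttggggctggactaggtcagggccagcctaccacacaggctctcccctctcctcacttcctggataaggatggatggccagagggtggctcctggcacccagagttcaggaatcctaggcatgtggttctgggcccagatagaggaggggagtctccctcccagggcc
Lrrn4 (chr2:132880863-132881112, minus strand): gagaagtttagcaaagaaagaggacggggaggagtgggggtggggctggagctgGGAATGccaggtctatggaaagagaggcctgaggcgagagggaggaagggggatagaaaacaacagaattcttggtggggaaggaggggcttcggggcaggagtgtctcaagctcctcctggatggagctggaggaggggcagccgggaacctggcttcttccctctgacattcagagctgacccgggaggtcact
GGAATG occurs once in each of these windows, and 12.6% of 32851 promoters of this length hold it. The letters of a TATA box (TATAAA, in 12.4% of promoters), a GC box (GGGCGG, 32.7%), a CCAAT box (CCAAT, 33.8%), an AP-1 site (TGACTCA, 4.46%) and a WT1 site (GCGTGGGAG, 0.405%) are in neither window on either strand. G or C makes up 60.8% of the Upk3b window and 59.2% of the Lrrn4 window, against a median of 52.4% over all promoters.

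The total count was between 29526989 and 81282871 per library. Replicates 1 and 2 of a group differed by little more than counting error, with a chi-square per degree of freedom of 1.75 in sham and 1.57 in PNX, whereas pairs with replicate 3 gave 67.95 to 87.1. They were therefore summed and counted as 1 sample, leaving n = 2 samples per group. The edgeR p-values set a difference against the spread between these samples, with the variance of a gene drawn towards that of all genes. With the replicate block 1 residual degree of freedom is left, so that the blocked p-values rest mostly on this shared variance. For the 8 genes, the largest deviation between replicates 1 and 2 was 2.12 standard errors of counting. The EC markers Pecam1 and Cdh5 were at 2020 to 2523 and 1288 to 1529 CPM (counts divided by the TMM-scaled library size and multiplied to a common total) in the 4 samples. None of 10 endothelial genes was called by edgeR in either direction, where 0% of all genes tested were called without the block and 5.12% with it. In a list this short, no call is close to those shares. Of these 10, 8 had a lower and 2 a higher fitted level after PNX, with a median blocked log2 fold change of −0.16. In 4 of them, Cdh5 included, all PNX libraries lay below all sham libraries, and in 1 all lay above. The shares over all genes tested were 17.9% and 18.5%.

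**Figure D1:**
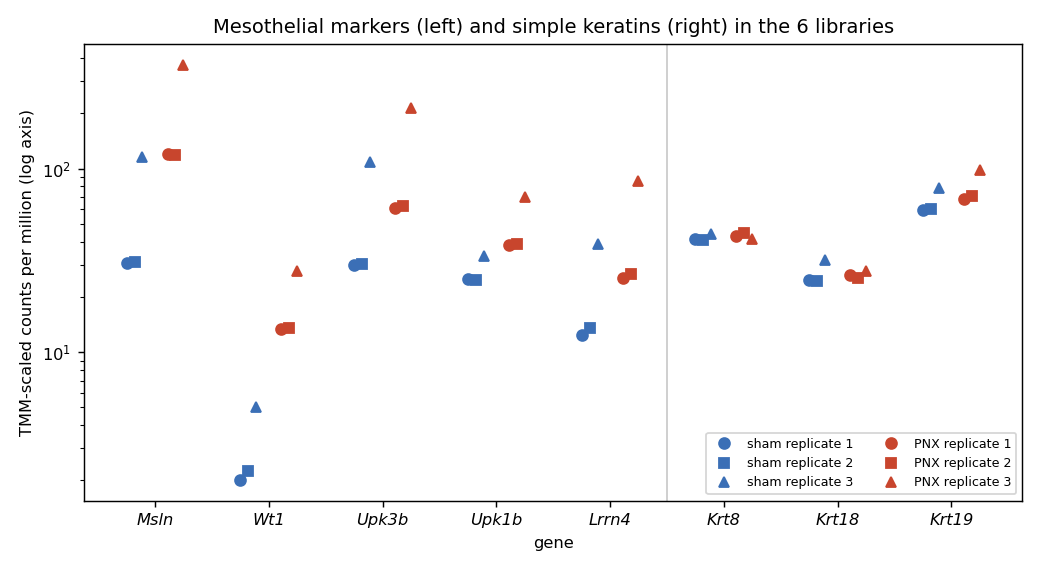
TMM-scaled CPM (log axis) of the 8 genes in each of the 6 libraries, with sham in blue, PNX in red and the replicate given by the symbol. Replicate 3 of each group lies above replicates 1 and 2 for all 5 mesothelial markers, and Krt8 stays between 41.1 and 44.4 CPM throughout.

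Wt1, the transcription factor, showed the largest difference. Sham replicates 1, 2 and 3 had 160, 160 and 170 counts, against 993, 896 and 816 in the PNX replicates. As CPM these are 2.01, 2.26 and 5.0 in sham and 13.3, 13.6 and 27.7 after PNX. All PNX libraries lay above all sham libraries. Mean levels were 3.57 ± 2.03 CPM (sham) and 20.5 ± 10.1 CPM (PNX), each with SD and n = 2 samples. In edgeR's quasi-likelihood test without the block, its log2 fold change of 2.55 ± 0.57 (± standard error) had an adjusted p of 0.182, and with the replicate block 2.57 ± 0.12 had an adjusted p of 2.41e-05. DESeq2 called Wt1 also without the block, at a log2 fold change of 2.53 and an adjusted p of 5.15e-05.

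Msln, the gene of the surface glycoprotein mesothelin, had the highest level per transcript length (TPM) of the markers after PNX. The sham replicates held 2450, 2202 and 3917 counts and the PNX replicates 8960, 7794 and 10870. As CPM these are 30.8, 31.2 and 115 in sham and 120, 118 and 368 after PNX. Sham replicate 3 thus came close to PNX replicates 1 and 2, and the groups are separated by only a few percent although each deposit shows a clear difference. Mean levels were 73.1 ± 59.7 CPM (sham) and 244 ± 176 CPM (PNX), each with SD and n = 2 samples. The edgeR log2 fold change was 1.74 (standard error 0.82, adjusted p = 0.496) without and 1.81 (standard error 0.10, adjusted p = 3.97e-05) with the replicate block.

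The uroplakin gene Upk3b had 2366, 2132 and 3684 counts in sham and 4568, 4152 and 6352 after PNX, or 29.7, 30.2 and 108 CPM in sham and 61.2, 62.9 and 215 CPM after PNX. Here sham replicate 3 lay above PNX replicates 1 and 2, so the groups overlap. Within each deposit the PNX level was 2.07 times (earlier, exact 95% counting interval 2.00 to 2.15) and 1.98 times (later, 1.91 to 2.07) the sham level. The edgeR log2 fold change was 1.00 (standard error 0.83, adjusted p = 0.718) without and 1.02 (standard error 0.08, adjusted p = 2.04e-04) with the replicate block, just past the threshold of 1 on fold size. Lrrn4 followed the same pattern, with 990, 955 and 1315 counts in sham and 1895, 1762 and 2524 after PNX, or 12.4, 13.5 and 38.7 CPM against 25.4, 26.7 and 85.5 CPM. Again sham replicate 3 lay above PNX replicates 1 and 2. PNX over sham was 2.01 (1.90 to 2.12) in the earlier deposit and 2.21 (2.07 to 2.36) in the later deposit for Lrrn4, and the edgeR adjusted p was 0.651 without and 2.41e-04 with the replicate block, at log2 fold changes of 1.11 (standard error 0.76) and 1.07 (standard error 0.09).

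Upk1b, which encodes a tetraspanin partner of other uroplakins, had the smallest fitted difference of the markers. Its count was 1995, 1749 and 1134 in sham and 2875, 2572 and 2078 after PNX, or 25.1, 24.7 and 33.4 CPM in sham and 38.5, 39.0 and 70.4 CPM after PNX. All 3 PNX libraries lay above the 3 sham libraries. The ratio of PNX to sham was 1.55 (1.49 to 1.62) in the earlier deposit and 2.11 (1.96 to 2.27) in the later one, and these counting intervals do not overlap. With the replicate block the edgeR log2 fold change was 0.85 (standard error 0.12, adjusted p = 0.00294), which is under the threshold on fold size, and without it 0.90 (standard error 0.34, adjusted p = 0.386).

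**Figure D2:**
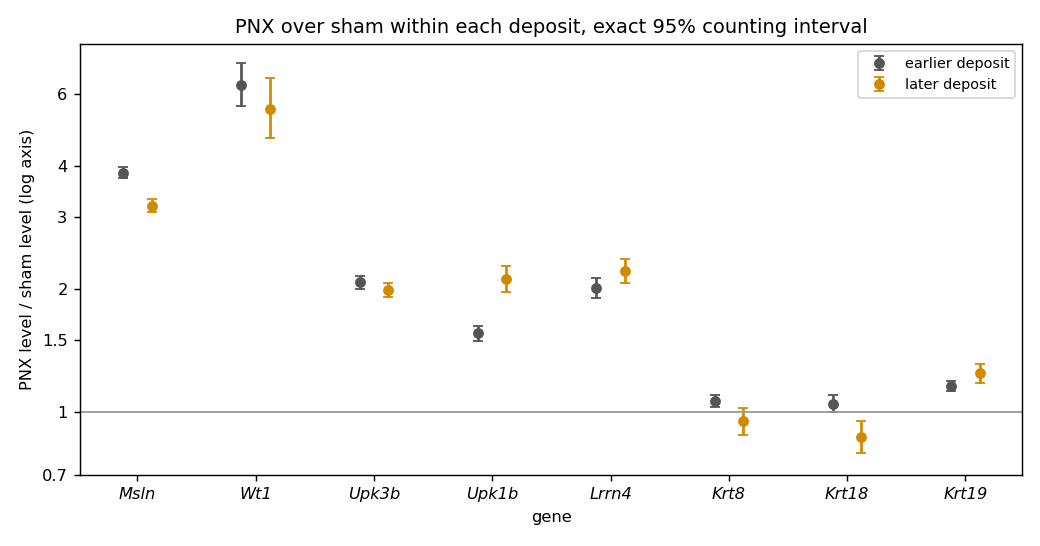
Ratio of the PNX level to the sham level (log axis) of each gene within the earlier deposit (grey, replicates 1 and 2 summed) and the later deposit (orange, replicate 3), with exact 95% intervals that cover counting error only. The 5 mesothelial markers lie at 1.55 or above in both deposits, and the 3 keratins between 0.866 and 1.24.

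A gene was called where the adjusted p was below 0.01 and the log2 fold change beyond 1 in size. Among the 16598 genes tested, edgeR without the block called 0, which is 0%, while 2076 (12.5%) had an unadjusted p under 0.05, Wt1 and Upk1b among them. With the replicate block 849 genes (5.12%) were called in either direction and 645 (3.89%) as higher after PNX, and 4 of the 8 genes, Wt1, Msln, Upk3b and Lrrn4, were among the latter. With adjusted p alone as the criterion, the block gave 9.54% of all genes and 5 of the 8, Upk1b being added. With the 6 libraries taken as separate replicates, 2.51% of genes were called without the block (2.28% as higher), none of the 8 among them, and 5.66% with it (4.33% as higher), the same 4 of the 8 among them. Fits on separate libraries treat the near-identical replicates 1 and 2 as independent, so their p-values can be too small. DESeq2 called 2.96% of genes (2.51% as higher), and of the 8 genes Wt1. The median log2 fold change without the block was 1.11 over the 5 markers and 0.0034 over the 3 keratins, beside −0.01 over all genes tested. Of the 8 genes, Wt1, Msln and Upk1b had all PNX libraries above all sham libraries, as did 18.5% of all genes tested. With 2 samples against 2 a two-sided exact permutation test cannot go below p = 0.333. In the fit without the block, leaving out PNX replicate 3 took the median over the 8 genes from 0.95 to 0.029. Leaving out sham replicate 3 took it to 1.62. In those fits the later deposit is left in the other group only, so PNX and deposit cannot be told apart. Within a deposit the median log2 difference over the 8 genes was 0.82 in the earlier and 1.03 in the later.

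The markers did not keep one ratio to each other. For each Msln count there were 0.065, 0.073 and 0.043 Wt1 counts in the 3 sham libraries, against 0.111, 0.115 and 0.075 in the PNX libraries. Every PNX library lay above every sham library in this ratio, though sham replicate 2 and PNX replicate 3 nearly met (0.073 and 0.075). Within a deposit the ratio was higher after PNX, by 1.64 times in the earlier (95% counting interval 1.45 to 1.85) and by 1.73 times in the later deposit (1.46 to 2.05). Upk3b was lower against Msln after PNX. It had 0.966, 0.968 and 0.941 counts for each Msln count in sham, almost the same in both deposits, and 0.510, 0.533 and 0.584 after PNX. The ratio of Lrrn4 to Msln was 0.404, 0.434 and 0.336 in sham and 0.211, 0.226 and 0.232 after PNX, also without overlap between the groups. Lrrn4 and Upk3b stayed close to each other, at 0.418, 0.448 and 0.357 Lrrn4 counts for each Upk3b count in sham and 0.415, 0.424 and 0.397 after PNX, where the groups overlap. This ratio changed by 0.970 times (0.908 to 1.04) in the earlier and by 1.11 times (1.03 to 1.20) in the later deposit. Wt1 against Upk3b changed most among the marker pairs compared, by 3.05 times (2.69 to 3.45) in the earlier and 2.78 times (2.35 to 3.30) in the later deposit. A ratio within a library does not depend on how the libraries are scaled.

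**Figure D3:**
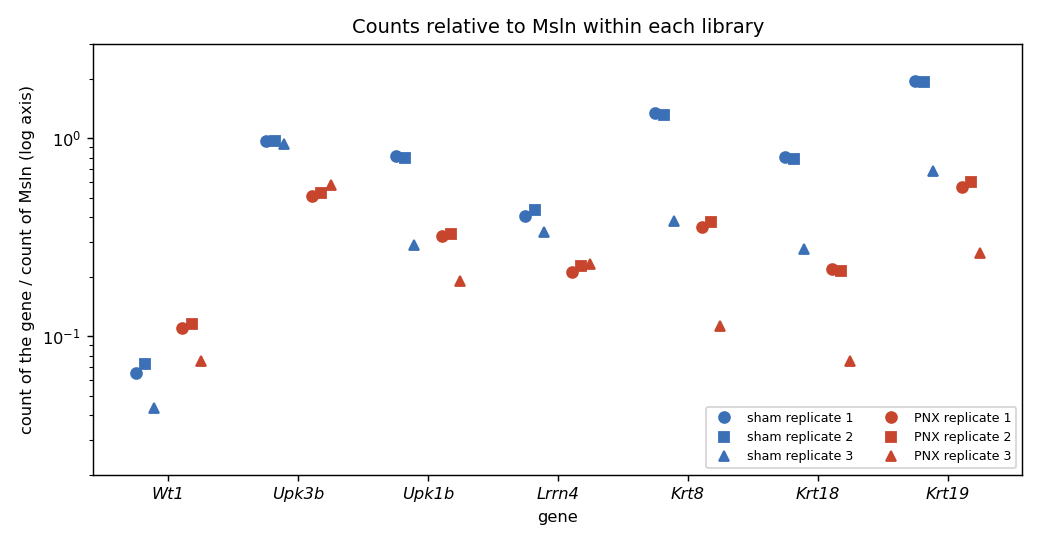
Count of each gene divided by the count of Msln in the same library (log axis), with sham in blue and PNX in red. Wt1 lies higher in the 3 PNX libraries than in the 3 sham libraries, whereas Upk3b, Lrrn4 and the 3 keratins lie lower, and Upk1b overlaps.

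Krt8, the type II keratin, had 3278, 2904 and 1494 counts in sham and 3210, 2933 and 1228 after PNX. As CPM these are 41.2, 41.1 and 44.0 in sham and 43.0, 44.4 and 41.6 after PNX, so the groups overlap and the libraries of both deposits are alike. Mean levels were 42.6 ± 2.01 CPM (sham) and 42.6 ± 1.46 CPM (PNX), each with SD and n = 2 samples, and the blocked edgeR log2 difference was 0.0065 (standard error 0.09, adjusted p = 0.969). Krt18, its type I partner, measured 24.8, 24.6 and 31.97 CPM in the sham libraries and 26.4, 25.2 and 27.7 after PNX. Its ratio of PNX to sham was 1.05 (0.999 to 1.10) in the earlier and 0.866 (0.790 to 0.949) in the later deposit, and the edgeR log2 fold change with the replicate block was −0.06 (standard error 0.10, adjusted p = 0.694). Krt8 and Krt18 kept a count ratio of 1.66, 1.67 and 1.38 in sham and 1.63, 1.76 and 1.503 after PNX, with no separation of the groups.

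Krt19, a type I keratin, had the highest level of the 3 simple keratins per transcript length (TPM). Its count was 4765, 4247 and 2675 in sham and 5073, 4682 and 2884 after PNX, or 59.9, 60.1 and 78.8 CPM in sham and 68.0, 70.9 and 97.7 CPM after PNX. The PNX level was higher in both deposits, by 1.16 times (1.12 to 1.19) in the earlier and by 1.24 times (1.18 to 1.31) in the later deposit, but sham replicate 3 lay above PNX replicates 1 and 2. With the replicate block the edgeR log2 fold change was 0.26 (standard error 0.08, adjusted p = 0.0602) and did not pass. The ratio of Krt19 to Krt8 was 1.45, 1.46 and 1.79 in sham and 1.58, 1.60 and 2.35 after PNX.

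Compared per length of transcript, as the TPM that the authors deposited, the order of the 8 genes differed between the groups. In sham replicates 1 and 2 Krt19 stood first at 109 TPM in each, followed by Krt8 at 57.1 and 56.8 TPM and Krt18 at 44.3 and 43.8 TPM. Next came Upk3b, Msln and Upk1b, between 34.9 and 37.0 TPM in these libraries and not separated beyond the difference between neighbours. In PNX replicates 1, 2 and 3 Msln stood first, at 141, 139 and 437 TPM, ahead of Krt19 at 123 and 129 TPM in replicates 1 and 2 and of Upk3b at 265 TPM in replicate 3. Sham replicate 3 lay between these orders, with Krt19 at 144, Msln at 137 and Upk3b at 134 TPM. Wt1 was last in every library, at 1.63 to 4.07 TPM in sham and 10.7 to 22.4 TPM after PNX. Msln lay above 79.7 to 94.5% of all symbols in the sham libraries and above 94.3 to 98.5% in the PNX libraries.

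The deposit term of the blocked fit, later minus earlier, was about as large as the PNX term for Msln, larger for Upk3b and Lrrn4, and smaller for Wt1 and Upk1b. It was called as higher in the later deposit for 4 of the 8 genes, Upk3b (log2 difference 1.83, standard error 0.08, edgeR adjusted p = 3.27e-04), Msln (1.76, standard error 0.10), Lrrn4 (1.65, standard error 0.09) and Wt1 (1.12, standard error 0.12), against 2.62% of all genes tested (3.31% in either direction). Upk1b was at 0.65 (standard error 0.12), Krt19 at 0.44 (standard error 0.08), Krt18 at 0.24 (standard error 0.10) and Krt8 at 0.01 (standard error 0.09), none past the threshold on size. The summed level of the 5 markers was 101 and 301 CPM in the earlier and later sham samples and 259 and 767 CPM in the PNX samples. What lies behind the difference between deposits was not tested. Both groups have samples in both deposits as named here. The block can take the difference out of the comparison if replicate 3 of both groups shares it, which the labels do not state.

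**Figure D4:**
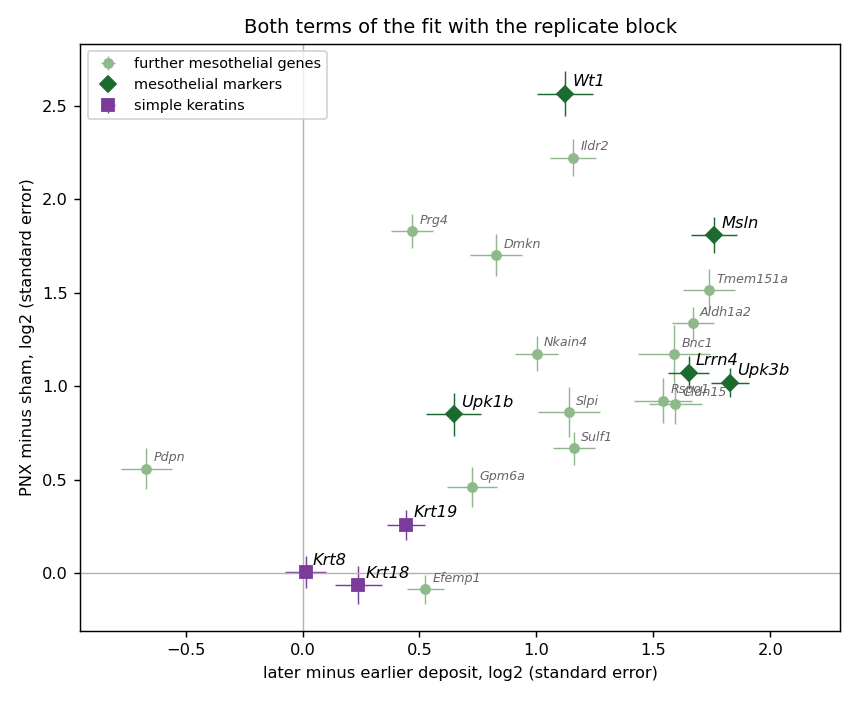
PNX minus sham (vertical) against later minus earlier deposit (horizontal), both as log2 differences from the edgeR fit with the replicate block, with standard errors as bars, for the 5 mesothelial markers, the 3 simple keratins and the further mesothelial genes tested. Among the 8 genes Wt1 has the largest PNX term (2.57) at a deposit term of 1.12, Upk3b the largest deposit term (1.83), and Krt8 lies at 0.01 on both axes.

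A list of 15 further mesothelial genes was examined beside the markers. Of these, 14 were tested, edgeR on the 4 samples called 0 without the block, and 7 were called as higher after PNX with it (3.89% of all genes tested), where the list was written with earlier results of these data known. The 7 were Ildr2, Prg4, Dmkn, Tmem151a, Aldh1a2, Nkain4 and Bnc1. Without the block, DESeq2 called 3 of them, Prg4, Ildr2 and Dmkn, against 2.51% of all genes as higher. On the 6 separate libraries, also without the block, edgeR called 1, Prg4, against 2.28%. Ildr2 had the largest log2 fold change with the block, 2.22 (standard error 0.10, edgeR adjusted p = 2.10e-05), from 4.66, 4.99 and 11.5 CPM in sham to 23.8, 23.9 and 50.3 CPM after PNX. Prg4, which encodes the lubricant protein lubricin, measured 12.7, 12.8 and 18.6 CPM in the sham libraries against 47.9, 47.5 and 63.0 CPM in the PNX libraries, and Dmkn 14.6, 14.2 and 22.1 CPM against 41.7, 40.2 and 82.9 CPM. Aldh1a2, the retinoic acid synthesising enzyme of mesothelium, measured 12.4, 13.5 and 38.3 CPM in the sham libraries against 30.0, 31.2 and 103 CPM in the PNX libraries, and with the block its log2 fold change was 1.34 (standard error 0.09). Tmem151a, Nkain4 and Bnc1 had log2 fold changes with the block of 1.52, 1.18 and 1.17.

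The most abundant of the further genes had smaller differences. Sulf1, Gpm6a and Efemp1 had log2 fold changes with the block of 0.67, 0.46 and −0.09 and were not called. Calb2, which encodes the human mesothelioma marker calretinin, had 0, 1 and 1 counts in sham and 1, 3 and 0 after PNX, too few to compare, and was not tested. Of the 14 genes tested 13 had a higher PNX than sham level in the earlier deposit and 13 in the later one, and 9 were called as higher in the later deposit than in the earlier one. The median log2 fold change over the list was 1.06 without and 1.05 with the replicate block. Several of these genes, such as Prg4, Sulf1 and Efemp1, are also made by fibroblasts. Of 6 fibroblast genes 4 were called as higher with the block (3.89% of all genes tested), Col1a1, Col1a2, Dcn and Lum, while Pdgfra and Tcf21 had log2 fold changes of −0.49 and −0.34 and were not called. The summed level of the 6 was 842 and 961 CPM in the sham samples and 2207 and 3200 CPM in the PNX samples. Lum, a defining gene of collagen-producing fibroblasts, was at 0.818 and 1.30 CPM in the sham samples and 15.4 and 25.2 CPM in the PNX samples, and the part of fibroblasts in the mesothelial list was not tested.

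The levels of the simple keratins stand beside lower levels of lung epithelial genes after PNX. In 5 lists of lung epithelium, 29 of 29 genes had a lower fitted level after PNX, as did 8626 of the 16598 genes tested, and 12 were called as lower with the block, against 1.23% of all genes tested. Without the block DESeq2 called 6 of the 29 as lower, against 89 of the 19812 genes it tested. On the 6 separate libraries, also without the block, edgeR called 1 of the 29, against 39 of 16263 genes. The blocked log2 fold changes of the 29 lay between −1.60 and −0.31. Epcam, an adhesion molecule of all lung epithelium, was at 15.3 and 22.9 CPM in the sham samples and 10.75 and 13.6 CPM in the PNX samples, with a blocked edgeR log2 fold change of −0.63 (standard error 0.11, adjusted p = 0.00767) that did not pass on size. The summed level of the alveolar type 2 list was 5483 and 5869 CPM in the sham samples against 3497 and 2101 CPM in the PNX samples, and that of the club airway list 2769 and 4615 CPM against 1423 and 1262 CPM. For the alveolar type 1 list it was 5886 and 2484 CPM in sham and 4281 and 1164 CPM after PNX, so the groups overlap. Of the 6 genes of that list 5 were called as lower in the later deposit, as were 115 of the 16598 genes tested. For each Epcam count there were 3.92, 3.91 and 3.44 Krt19 counts in sham and 6.45, 6.45 and 7.21 after PNX. The ratio of Krt8 to Epcam was 2.69, 2.67 and 1.92 in sham and 4.08, 4.04 and 3.07 after PNX, and that of Krt18 to Epcam 1.62, 1.60 and 1.40 against 2.51, 2.29 and 2.04. For all 3 keratins the PNX libraries lay above the sham libraries in this ratio, and Krt19 against Epcam changed by 1.65 times (1.54 to 1.77) in the earlier and 2.10 times (1.84 to 2.39) in the later deposit. The shares of mesothelial, epithelial and other cells in the keratin counts were not tested.

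**Figure D5:**
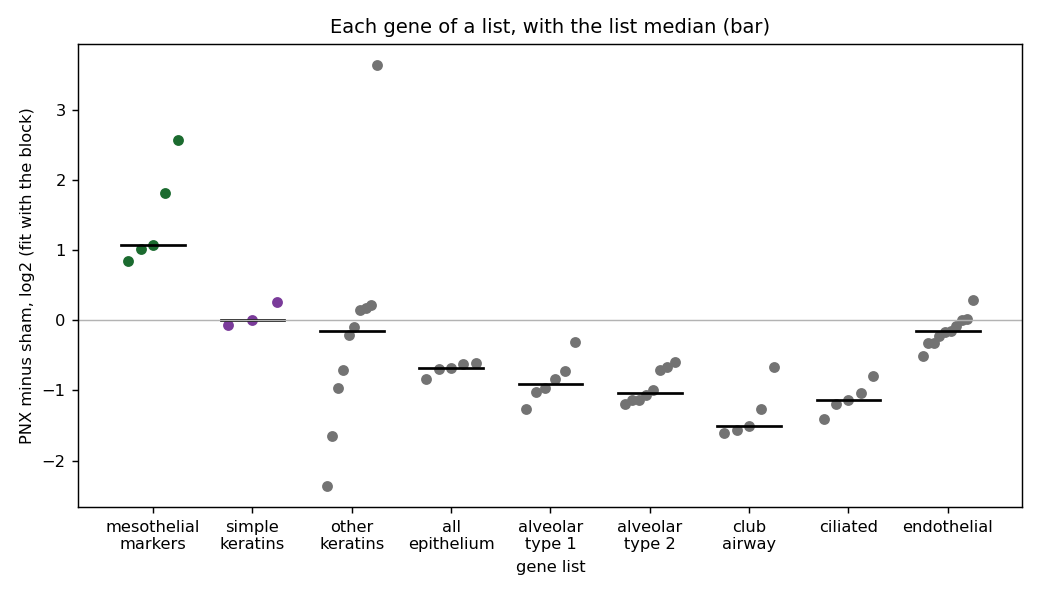
PNX minus sham as log2 difference from the edgeR fit with the replicate block (vertical) for each gene tested of 9 lists, with the median of a list as a bar. The 5 mesothelial markers lie between 0.85 and 2.57, the 3 simple keratins between −0.06 and 0.26, and all 29 genes of the 5 epithelial lists below 0.

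Among 12 other keratins, 10 were tested, and edgeR on the 4 samples called only Krt14 with the replicate block, as higher after PNX (3.89% of all genes tested). Krt14, a type I keratin of basal cells in stratified epithelia, had 18, 28 and 8 counts in sham and 264, 233 and 104 after PNX. As CPM these are 0.226, 0.396 and 0.236 in sham and 3.54, 3.53 and 3.52 after PNX, so PNX libraries of both deposits were alike and all above sham. Its edgeR log2 fold change was 3.65 with an adjusted p of 0.0720 without the block and 3.63 (standard error 0.26, adjusted p = 1.31e-04) with it. Krt5, its usual type II partner, had 27, 22 and 9 counts in sham and 4, 4 and 2 after PNX, and Krt15 had 64, 63 and 28 against 20, 17 and 8. Both were lower in every PNX library than in every sham library, and neither passed on the 4 samples, with edgeR adjusted p of 0.0203 and 0.0146 with the block. On the 6 separate libraries without the block edgeR called both as lower, against 39 of 16263 genes tested. The log2 fold change there was −2.33 for Krt5 (edgeR adjusted p = 0.00634) and −1.65 for Krt15 (adjusted p = 0.00507). That fit treats the near-identical replicates 1 and 2 as independent, so these p-values can be too small. DESeq2 called neither. The most abundant other keratins, Krt80, Krt7 and Krt79, had log2 fold changes with the block of −0.09, 0.17 and −0.21.

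Genes whose profile over the 4 samples was closest to that of Msln, Wt1 or Krt18 were found among 14290 genes with a mean count of at least 50, by the root mean square difference of the centred log2 CPM. Closest to Msln were Sfrp2 (0.04), Fras1 (0.10), Crb2 (0.10), Cilp (0.13) and C3 (0.14). Among the 5 closest to Wt1 were Clspn (0.07), Scara3 (0.11), Cenph (0.12) and Psrc1 (0.12), and closest to Krt18 were Vsig10l, Otulin, Tbl1xr1, Pnrc1 and B3galt1, each at 0.01 or 0.02. None of the other 7 genes was among the 5 closest in any of the 3 lists. Lrrn4 and Upk3b stood at places 38 and 42 from Msln, Wt1 at place 78, and Krt8 at place 1136 from Krt18.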

How the data were processed

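RNA sequencing of 6 libraries was analysed, 3 sham and 3 PNX, each a pool of 2 mice. The authors deposited, for each library, read counts per RefSeq transcript with FPKM and TPM values beside them. Per the labels, reads were aligned with STAR to mm10, with the counting tool, its version and its use of strand not given in the sources used here. Counts of the transcripts of a symbol were summed (33068 transcripts, 24063 symbols). The deposited TPM values served to compare levels between genes, and the deposited FPKM values were not tested.

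Replicates 1 and 2 of a group, near-identical in counts, were summed, giving 4 samples. No source used here says whether they are one preparation. Genes passing filterByExpr were tested with edgeR 4.0.16 (R 4.3.3, limma 3.58.1), TMM scaling, the quasi-likelihood test and Benjamini-Hochberg adjustment over all 16598 genes, with thresholds of 0.01 on adjusted p and 1 on the absolute log2 fold change. The block is the deposit. Labels tie replicates 1 and 2 and replicate 3 to a deposit in both groups, and the later minus earlier differences of sham and PNX correlated across 14290 genes (Pearson 0.726, Spearman 0.74, genes not being independent replicates). The common biological coefficient of variation was 0.236 without and 0.0973 with the block, at 2 and 1 residual degrees of freedom. DESeq2 1.42.0, limma-voom, other scalings, filters and left-out libraries were alternatives. Intervals of a ratio within a deposit cover counting error only, at 95%, exact for PNX over sham and by a normal approximation on the log scale for ratios of 2 genes.

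The members and lists were chosen with earlier results of these data known. Named from the lists of further mesothelial genes, other keratins and relatives were the 3 most abundant genes, the 3 with the largest absolute log2 fold change and each gene called. From the cell type lists only some genes are named. Totals of 29526989 to 81282871 counts set the counting precision, which for Wt1 rests on 160 to 993 counts. The standard errors of the fits also hold the spread between samples. Muc16 was not analysed here. Of the genes closest in profile to Wt1, 1 is not reported here.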

Additional observations from a re-analysis of the deposited data

How the results depend on the processing

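The call of the markers turned on the replicate block. With it 849 genes were called, 4 of the 8 members among them, where 0 were called without it. With the 6 libraries as separate replicates 409 genes were called without the block, and 920 genes and 4 members with it. DESeq2 called 587 genes and 1 member, and limma-voom 0 genes, with 2174 at an unadjusted p under 0.05. Leaving out libraries in turn gave 0 to 2 genes called, 2 without PNX replicate 3. The median log2 fold change of the members was then 0.029 to 1.62, the lowest without PNX replicate 3 and the highest without sham replicate 3, and 0.42 without both sham replicates 1 and 2 and 1.46 without both PNX replicates 1 and 2. Upk3b ranged from −0.15 (without PNX replicate 3) to 2.21, Krt8 from −0.058 to 0.065 and Krt18 from −0.27 to 0.13, with changes of sign. Leaving out PNX replicate 3 lowered, and leaving out sham replicate 3 raised, Msln (0.71 and 2.98), Lrrn4 (0.02 and 2.11), Wt1 (1.94 and 3.27), Upk1b (0.41 and 1.14) and Krt19 (0.0024 and 0.49). Krt8 was at −0.0071 with upper-quartile scaling. With all libraries kept, Msln stayed between 1.71 and 1.89, Wt1 between 2.53 and 2.64 and Lrrn4 between 1.06 and 1.19. The deposit term called the 4 members in each of its 9 alternatives. With replicate 3 of a group left out the deposit term has no residual degrees of freedom and was not fitted. The PNX minus sham fits with libraries left out had no replicate block. Without replicate 3 of a group the later deposit is left in the other group only, and without replicates 1 and 2 the earlier deposit. PNX and deposit cannot be told apart in those fits. Where a leave-out left 1 sample in a group, that sample was assumed to vary like the other group. Counting precision was lowest for Wt1 among the members, and the cause of the changes was not tested.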

Other observations

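Of 12 relatives of the 8 genes 8 were tested, edgeR on the 4 samples called 0 without the block, and 4 were called as higher after PNX with it (3.89% of all genes tested). Without the block, DESeq2 called 2 of them, Lrrn2 and Lrrn4cl, against 2.51% of all genes as higher. On the 6 separate libraries, also without the block, edgeR called 1, Lrrn2, against 2.28%. Lrrn2, of the same family as Lrrn4, had 115, 95 and 57 counts in sham and 443, 392 and 165 after PNX, with a blocked edgeR log2 fold change of 1.94 (standard error 0.19, adjusted p = 5.85e-04). Unlike Lrrn4, it was at much the same CPM in both deposits, at 1.40 and 1.68 in the sham samples and 5.94 and 5.59 in the PNX samples. Lrrn1 had 6, 1 and 5 counts against 43, 29 and 27, and Lrrn4cl 496, 403 and 169 against 760, 684 and 502. Wt1os, antisense to the region beside Wt1, had 5, 2 and 7 counts in sham and 36, 40 and 45 after PNX, and without strand in the counting its reads cannot be told apart from any of Wt1 that extend past its annotated start. The most abundant relatives, Muc1 and Lrrn3, were at −0.60 and −0.57 on the log2 scale with the block and were not called.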
